A study of Homo sapiens with 2 samples.

Results

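The genes described here encode the nuclear subunits and assembly factors of respiratory complex I, and were taken as every gene whose symbol starts with NDUF and that has a probe set assigned to it alone. There were 44 such genes of 19775 genes with their own probe set, covered by 82 probe sets. Of these, 33 encode subunits, 8 encode assembly factors (NDUFAF) and 3 are antisense or divergent transcripts that carry the name of a neighbouring NDUF gene. RNA was measured in HT-29 cells, an established human colorectal adenocarcinoma line, on 1 array for cells grown as monolayer and 1 array for spheroids. Monolayer cells were kept on tissue culture plates in DMEM/F-12 with 10% fetal bovine serum. The same line formed spheroids on low adhesion plates in stem cell media with B27, epidermal growth factor and fibroblast growth factor, and were harvested on day 5, so that medium, serum and growth form differed together. Both cultures received antibiotic-antimycotic, and no other treatment is named for either.

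Complex I oxidises NADH in the mitochondrial matrix, passes the electrons to ubiquinone and pumps protons across the inner membrane. Its peripheral arm holds the N module, where NADH is oxidised, and the Q module, where ubiquinone is reduced. The membrane arm moves the protons, and its proton channels are made from mitochondrial DNA while the subunits around them come from the nucleus. The assembly factors build the complex and leave it before it works.

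The values are MAS5 signals, intensities on a linear scale, with a trimmed mean of 500.1 on each array. The median over both arrays together, 62.7, served as a floor for the lowest usable signal, and a log2 difference is always the spheroid signal over the monolayer signal. Each gene is given by its brightest probe set, taken on the mean of the log2 signals. The signal at the 3′ end over that at the 5′ end, a measure of RNA quality, was 4.07 in monolayer and 3.65 in spheroids for ACTB. For GAPDH it was 1.05 and 1.07. The part of RNA quality in the differences was not tested. With 1 array per condition no difference has a replicate check and no test was run, and in bulk RNA fewer cells that express a gene cannot be told apart from less RNA per cell. Counting the genes that exceeded the floor on at least 1 array, 13183 were measured, and their median log2 difference was -0.05. Of 11 markers of colorectal epithelium 9 were above the floor on at least 1 array, CDX1 and LGALS4 being under it on both. The signals of the 11 summed to 86183 in monolayer and 76146 in spheroids, but of the 9 measured 4 were lower and 5 higher, with a median log2 difference of 0.08. Of 4 leukocyte markers 0 were above the floor, of 3 endothelial markers 1 and of 5 fibroblast markers 2. Their summed signals in monolayer and spheroids were 124.9 and 87.5 for leukocytes, 193.8 and 120.2 for endothelium and 1506 and 2161 for fibroblasts. Most of the fibroblast sums came from 1 gene, COL1A1, at 1370 and 1972. The part of these signals in the complex I differences was not tested.

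All 41 complex I genes exceeded the floor in monolayer and in spheroids. Most of the subunit genes were slightly lower on the spheroid array than on the monolayer array. Of the 33 subunit genes 28 were lower, with a median log2 difference of -0.25, where 54.8% of all measured genes were lower. Of genes at least as bright as the dimmest subunit, 57.3% were lower, with a median of -0.06. When the hybridisation spike-ins set the scale, the median of all genes moves from -0.05 to 0.18. On that scale 17 of the 33 subunits were lower, with a median of -0.0084, where 32.8% of all measured genes were lower. This share also stands beside the later counts with spike-in scaling. Of the 33 subunits 28 lay below the median of all genes, a count that a change of scale by 1 factor per array can hardly alter by construction. The choice of probe set did alter this count. It was 25 with the median of the probe sets of a gene and 23 with the most different probe set. Without _s_at and _x_at probe sets it was 18 of 26. The sizes were small. None of the 41 genes was 2-fold lower or 2-fold higher, a size reached by 3.08% and 2.53% of all measured genes and by 0.808% and 1.29% of those at least as bright as the dimmest complex I gene. At 1.5-fold, 6 of the 41 genes were lower and 0 were higher, against 11.6% and 9.53% of all measured genes, and against 6.92% and 6.79% of the equally bright genes. Of the equally bright genes 56.1% were lower at any size, against 33 of the 41.

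**Figure D1:**
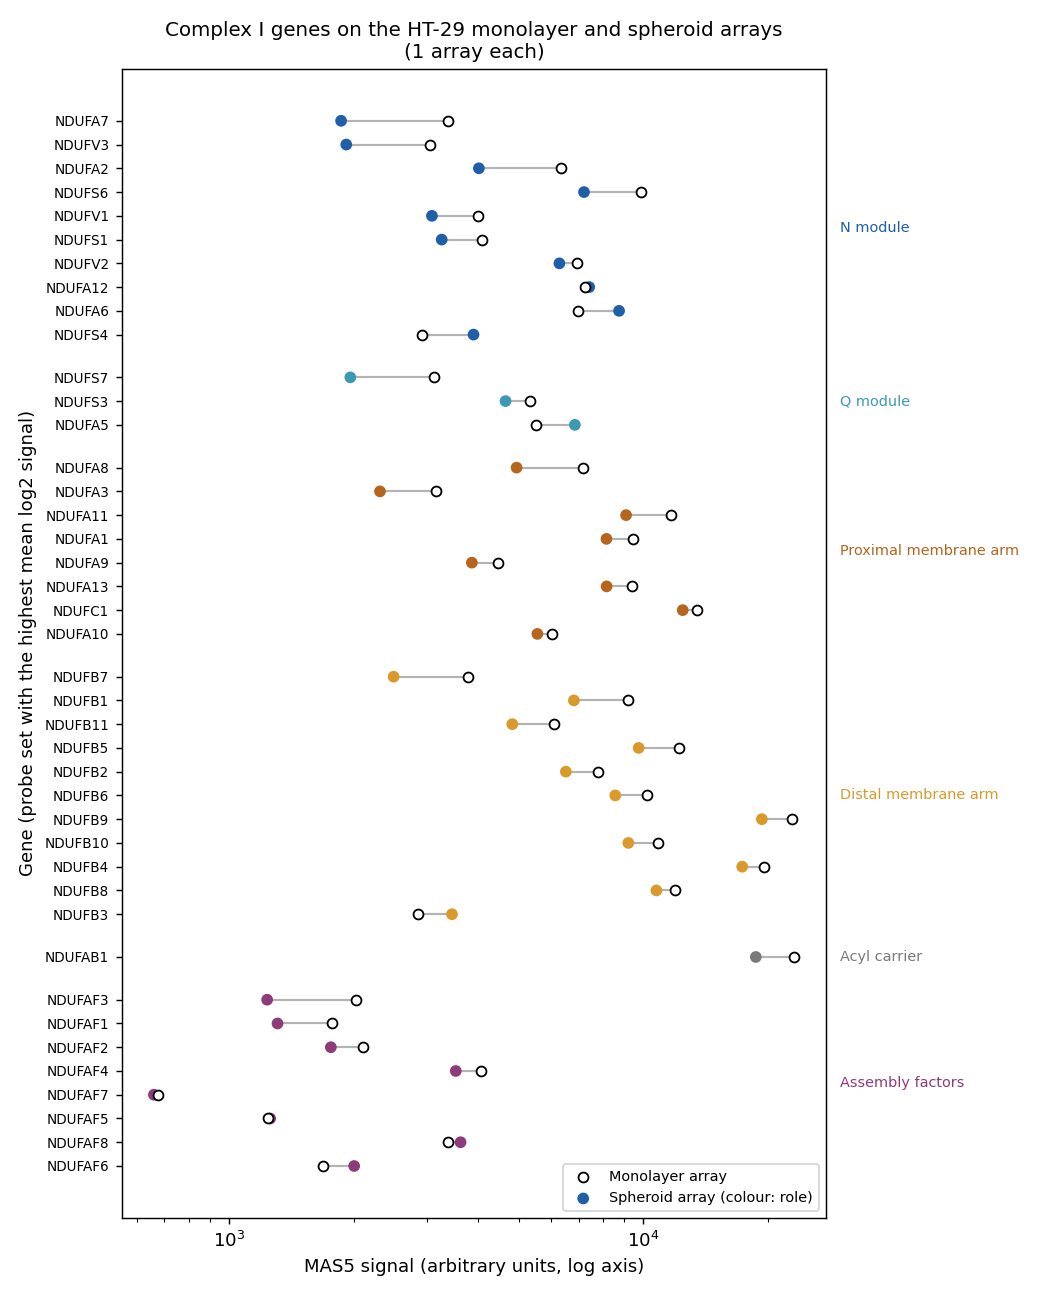
MAS5 signal (log axis, arbitrary units) of the 41 complex I genes on the HT-29 monolayer array (open circles) and the spheroid array (filled circles, coloured by role), 1 array each. The filled circle lies to the left of the open one for 33 of the 41 genes, and to the right most clearly for NDUFS4, NDUFA6, NDUFA5 and NDUFB3. On the scale of the hybridisation spike-ins every filled circle would move to the right by 0.25 on the log2 scale.

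The N module held both ends of the range. Of its 10 measured genes 7 were lower and 3 were higher, with a median log2 difference of -0.35, and with spike-in scaling 6 were lower, with a median of -0.10. NDUFA7, an accessory subunit of this module, fell from a signal of 3381 in monolayer to 1867 in spheroids and was 1.81-fold lower, the lowest of all subunits. A second, dim probe set of NDUFA7 went from 159.8 to 162.3. NDUFA2, another accessory subunit, went from 6319 to 4012 and was 1.57-fold lower. NDUFS6, a zinc-binding accessory subunit, went from 9848 to 7193, a log2 difference of -0.45.

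NDUFV1, which binds NADH and the flavin, went from 3997 to 3091, a log2 difference of -0.37. A dim second probe set of NDUFV1 was at 26.0, under the floor, in monolayer and at 72.7 in spheroids, at least 1.16-fold higher. NDUFS1, the largest subunit of the complex and carrier of several iron-sulphur clusters, went from 4073 to 3264, a log2 difference of -0.32. NDUFV2, which holds a further iron-sulphur cluster, went from 6919 to 6275, a log2 difference of -0.14. Further probe sets of NDUFS1 lay on both sides of 0. By their brightest probe sets these catalytic genes lay within a narrow range and were lower on the deposited scale, while NDUFV2 is higher with spike-in scaling. In contrast, NDUFS4, an accessory subunit whose loss causes Leigh syndrome, was the highest of the 41 genes, going from 2920 to 3894, 1.33-fold higher. NDUFA6, an accessory subunit of the LYR protein family, went from 6959 to 8739 and was 1.26-fold higher, and its other probe set went the same way, from 1340 to 1607. NDUFA12 was almost level, at 7237 and 7404.

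Of the genes that the list of roles used here places in the Q module, 3 were measured. NDUFS7, which carries the last iron-sulphur cluster before ubiquinone, went from 3134 to 1965 and was 1.59-fold lower. NDUFS3, a core subunit of the same module, had a smaller log2 difference of -0.20, with signals of 5332 and 4652. NDUFA5, the accessory subunit bound to it, went from 5498 to 6837 and was 1.24-fold higher. Core subunits are those with bacterial counterparts, and all 5 measured here were lower, 3 of them with spike-in scaling, with a median log2 difference of -0.32 and a range from -0.67 to -0.14 on the deposited scale. The 27 measured accessory subunits had a median of -0.24, 22 of them lower, or 13 with spike-in scaling.

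Genes of the membrane arm moved in a narrower band. All 8 measured accessory subunits of the proximal part were lower, from -0.53 for NDUFA8 to -0.11 for NDUFA10 on the log2 scale, with a median of -0.21, but with spike-in scaling 3 of the 8 were lower. NDUFA8, which is held together by disulphide bonds and faces the intermembrane space, had signals of 7137 in monolayer and 4947 in spheroids. NDUFA3 went from 3162 to 2317, a log2 difference of -0.45. NDUFA10, a subunit related to nucleoside kinases, went from 6012 to 5552. NDUFA1, NDUFA9 and NDUFA13 lay close together at log2 differences of -0.22, -0.21 and -0.20. NDUFA9 is counted in this part by the list of roles used here, a placement that was not checked.

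In the distal part 10 of 11 genes were lower, or 6 with spike-in scaling, with a median log2 difference of -0.25 on the deposited scale. NDUFB7 was the lowest, at 3787 in monolayer and 2499 in spheroids, 1.52-fold lower, and the only gene of the membrane arm past 1.5-fold. NDUFB1 followed, with signals of 9165 and 6800. NDUFB3 was the exception, with signals of 2862 and 3456, a log2 difference of 0.27. The other 8, from NDUFB11 to NDUFB8, lay between -0.33 and -0.15. On the scale of the spike-ins, all of these values are higher by 0.25.

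NDUFAB1, the mitochondrial acyl carrier protein, is bound in both arms and also serves mitochondrial fatty acid synthesis. The signal went from 23081 to 18675, and the log2 difference was -0.31.

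The 8 assembly factors had no common direction. Their median log2 difference was -0.12, with 5 lower and 3 higher, and with spike-in scaling it was 0.13, with 3 lower. NDUFAF3, which works on the early Q module together with NDUFAF4, went from 2032 to 1238 and was 1.64-fold lower. NDUFAF4 itself went from 4067 to 3529, a log2 difference of -0.20, but a dimmer probe set of the gene went the other way, from 366.1 to 486.6. NDUFAF1, which acts in the assembly of the proximal membrane arm, went from 1771 to 1312, a log2 difference of -0.43. NDUFAF2, a chaperone related to NDUFA12 that acts late in assembly, went from 2103 to 1764.

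NDUFAF5 and NDUFAF7 are methyltransferases that modify subunits of the Q module. NDUFAF5 had signals of 1243 and 1259, and NDUFAF7 of 676.0 and 660.2, so that neither brightest probe set differed by more than 0.04 on the log2 scale. Another probe set of NDUFAF5 went from 893.5 to 928.2. Its dimmest went from 89.4 to 2.95, under the floor, and was at least 1.43-fold lower. Both other probe sets of NDUFAF7 were lower, the dimmest by 1.08 on the log2 scale, from 183.5 to 86.6. NDUFAF8, a partner of NDUFAF5, was at 3380 and 3625. NDUFAF6 was the highest of the 8, at 1691 in monolayer and 2007 in spheroids, and its other probe set was higher too, at 77.4 and 123.8.

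**Figure D2:**
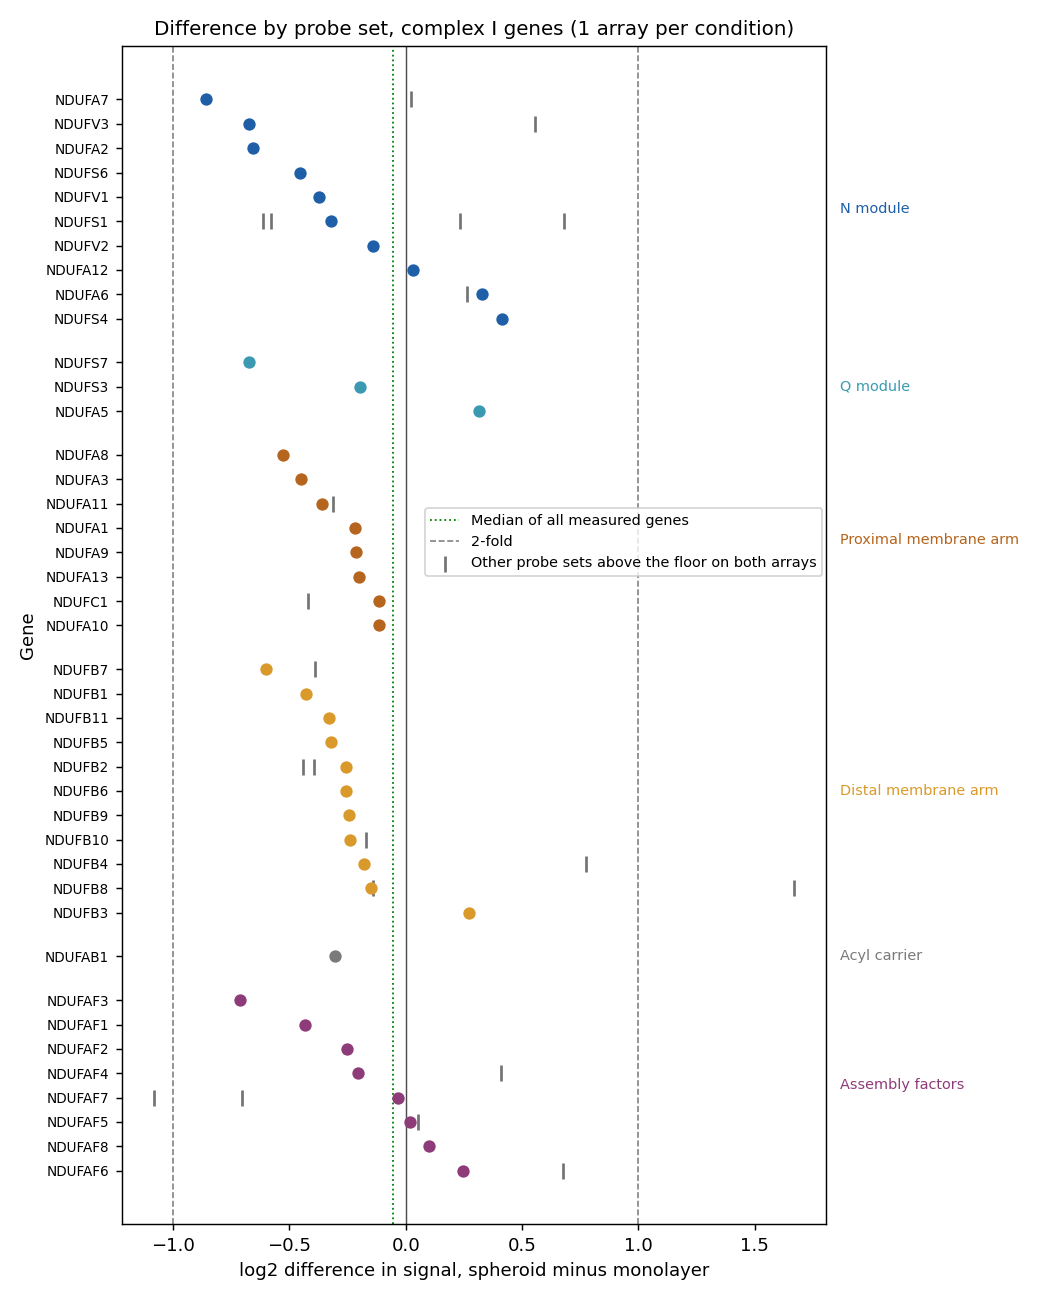
Log2 difference in signal, spheroid minus monolayer, of the 41 complex I genes by role (coloured dots, the brightest probe set of each gene), with further probe sets that exceeded the floor in monolayer and spheroids as grey ticks, the median of all measured genes (-0.05) as a dotted line and 2-fold differences as dashed lines, on the deposited scale. No dot reaches a dashed line, while a tick of NDUFB8 and one of NDUFAF7 lie beyond them. Scaling to the hybridisation spike-ins would move dots, ticks and dotted line to the right together. Then 17 of the 33 subunit dots would be under 0, where 32.8% of all measured genes are lower.

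Probe sets of one gene did not always go the same way. Of the 78 probe sets for the 41 genes, 62 exceeded the floor in monolayer and in spheroids. The 41 that stand for their gene had a median of mean signals of 5417, and 33 of them were lower. The other 21 were mostly dim, with a median of 228.8, and 11 of them were lower. Of 15 genes with more than 1 such probe set 6 had probe sets on both sides of 0. These were NDUFA7, NDUFAF4, NDUFB4, NDUFB8, NDUFS1 and NDUFV3.

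NDUFV3, an accessory subunit of the N module, is known to be made in a short and a long isoform by alternative splicing. Its brighter probe set had signals of 3064 and 1921 and was 1.59-fold lower, and the other had 371.7 and 547.1 and was 1.47-fold higher. Which isoform each of them reads was not determined. NDUFS1 had 5 probe sets above the floor, 3 lower and 2 higher, from -0.61 to 0.68 on the log2 scale. For NDUFB8 both bright probe sets were at -0.15 and -0.14, while a dim one went from 107.7 to 342.6, 3.18-fold higher. NDUFB1 has a second probe set at 49.5 in monolayer, under the floor, and 152.2 in spheroids, at least 2.43-fold higher. Within single genes, probe sets scattered in log2 difference with a pooled SD of 0.41, over 5506 genes of the arrays, which is larger than the difference of most single complex I genes.

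Of the 41 genes, 22 stand on a probe set of the _s_at type, whose probes match more than 1 transcript. RefSeq names 62 pseudogenes after 20 of the 41 genes, with 12 each for NDUFA5 and NDUFB4. The 20 genes with such pseudogenes had a median log2 difference of -0.25, with 17 lower, and the 21 without had -0.22, with 16 lower. Whether a probe set also binds RNA of a pseudogene was not tested. With _s_at and _x_at probe sets left out, 26 subunits remained measured, 18 of them lower, with a median of -0.17. Under that setting 52.1% of all measured genes were lower, with a median of -0.02.

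The 3 transcripts named after NDUF genes were dim. NDUFV1-DT, a long non-coding RNA that starts beside NDUFV1 on the opposite strand, was at 216.5 on the monolayer array and at 55.6, under the floor, on the spheroid array, and was at least 3.45-fold lower. Against a higher floor of 89.2, which 95% of the signals of olfactory receptor genes do not exceed, it was at least 2.43-fold lower. NDUFV1 itself was 1.29-fold lower. In RefSeq (GRCh38.p14) 229 bases lie between the starts of the pair, which is shown because both transcripts leave it in opposite directions. It is written 5′ to 3′ on the strand of NDUFV1, chr11:67606707-67606935 (plus strand), with 71.6% G and C.
NDUFV1: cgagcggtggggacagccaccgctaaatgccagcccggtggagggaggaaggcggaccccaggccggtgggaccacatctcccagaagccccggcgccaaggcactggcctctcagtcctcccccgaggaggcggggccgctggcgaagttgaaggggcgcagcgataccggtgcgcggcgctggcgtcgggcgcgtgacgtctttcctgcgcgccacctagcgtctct
None of the motifs searched, which are spelled out further on, is in these bases. NDUFB2-AS1, which overlaps the start of NDUFB2 on the other strand, went from 108.3 to 9.55 and was at least 1.73-fold lower against the floor of 62.7, and at least 1.21-fold lower against that of 89.2. NDUFB2 was 1.19-fold lower. NDUFV2-AS1 was at 58.0, under the floor, in monolayer and 93.0 in spheroids, at least 1.48-fold higher, but only at least 1.04-fold higher against the floor of 89.2.

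Promoter windows, 250 bases before to 50 after the start, were given by RefSeq (GRCh38.p14) for 38 of the 41 genes. Windows of NDUFB5, NDUFB9 and NDUFAF6 were not analysed here. The windows were searched on both strands for letters bound by factors known to drive respiratory genes. The palindrome bound by NRF1 was in windows of 3 of the 38 genes, or 7.89%, and of 2.57% of the 10653 measured genes with a window. The shorter TGCGCA, which lies partly within the palindrome, was in 12, or 31.6%, against 15.3%. The ETS motif CCGGAAG, which GABPA binds, was in 7, or 18.4%, against 21.3%. The cyclic AMP response element TGACGTCA was in 2, or 5.26%, against 3.61%, and the E-box CACGTG in 4, or 10.5%, against 12.4%. The 12 genes with TGCGCA had a median log2 difference of -0.21 and the other 26 a median of -0.25. The median was -0.18 with the palindrome, -0.20 with the ETS motif and -0.18 with the cyclic AMP response element, against -0.25 without in each case. The 4 genes with the E-box, NDUFA7, NDUFS7, NDUFA11 and NDUFAF5, had a median of -0.52, against -0.23 without it, and all but NDUFAF5 lie on chromosome 19. A match is a description of the letters and not of binding.

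The YY1 motif AAGATGGCG was in windows of 7 of the 38 genes, or 18.4%, against 4.40% of the measured genes with a window. These 7 included the lowest subunit, NDUFA7, and the highest, NDUFS4. In each the motif lay on the strand of the gene and within the first bases after its start, beginning at base 11 to 26 counted from 1 at the start. In the windows of all genes 52.9% of 628 matches lay on the strand of the gene and after its start. The letters hold ATG followed by GCG, and whether they are the first codons was not determined. The sites are shown with the motif in capitals and 10 bases on each side, 5′ to 3′ on the strand of the gene, because they lie in the genes at both ends of the range, in order from the lowest log2 difference to the highest.
NDUFA7: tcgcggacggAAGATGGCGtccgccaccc
NDUFS7: ggccgaggccAAGATGGCGgtgctgtcag
NDUFA9: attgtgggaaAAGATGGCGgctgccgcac
NDUFB8: gaagaaggtgAAGATGGCGgtggccaggg
NDUFAF8: ggacggacctAAGATGGCGgcctccaggg
NDUFA6: atgctttggcAAGATGGCGgggagcggcg
NDUFS4: tgcctgcagcAAGATGGCGgcggtgtcaa
Their log2 differences, in this order, were -0.86, -0.67, -0.21, -0.15, 0.10, 0.33 and 0.42, and the median was -0.15.

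The promoters of the lowest and the highest subunit differ in base composition, and are shown for that reason. The 250 bases before the start of NDUFA7, chr19:8321376-8321625 (minus strand), hold 66.8% G and C, and those before NDUFS4, chr5:53560389-53560638 (plus strand), 36.8%. Capitals mark a match to one of the motifs, here the E-box of NDUFA7, which begins 120 bases before the start.
NDUFA7: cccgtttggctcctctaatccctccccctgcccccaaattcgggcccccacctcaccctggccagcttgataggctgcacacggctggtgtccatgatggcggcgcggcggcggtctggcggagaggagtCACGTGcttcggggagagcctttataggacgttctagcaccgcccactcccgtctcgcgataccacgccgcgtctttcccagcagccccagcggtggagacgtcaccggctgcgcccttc
NDUFS4: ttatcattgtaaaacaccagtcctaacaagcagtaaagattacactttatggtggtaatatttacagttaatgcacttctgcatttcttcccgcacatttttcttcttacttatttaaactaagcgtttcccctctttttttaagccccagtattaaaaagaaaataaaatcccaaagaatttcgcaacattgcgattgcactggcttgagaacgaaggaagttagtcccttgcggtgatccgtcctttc
Over the 38 genes the share of G and C in the whole window and the log2 difference had a Spearman rho of -0.33 and a Pearson r of -0.43. Over all 10653 measured genes with a window the rho was -0.07 and the r -0.06. All points come from the same pair of arrays, so that these are descriptions across genes. NDUFS4, NDUFA5 and NDUFB3, with 40.3%, 45.8% and 51.0% G and C in their windows, were higher, whereas NDUFA6 was higher with 63.7%.

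Chromosome 19 carries 6 of the 38 genes with a window, namely NDUFA7, NDUFS7, NDUFB7, NDUFA3, NDUFA11 and NDUFA13. All 6 were lower, from -0.86 to -0.20 on the log2 scale, with a median of -0.52, and 5 of the 6 with spike-in scaling. The 32 genes on other chromosomes had a median of -0.21, with 25 lower. Over all measured genes with a window, the 785 on chromosome 19 had a median of -0.13, with 62.4% lower, and the 9868 on other chromosomes a median of -0.05, with 54.3% lower. A grouping by chromosome was not among the planned comparisons. The group holds NDUFA7, NDUFS7 and NDUFB7, each past 1.5-fold lower, so its median is only a description.

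**Figure D3:**
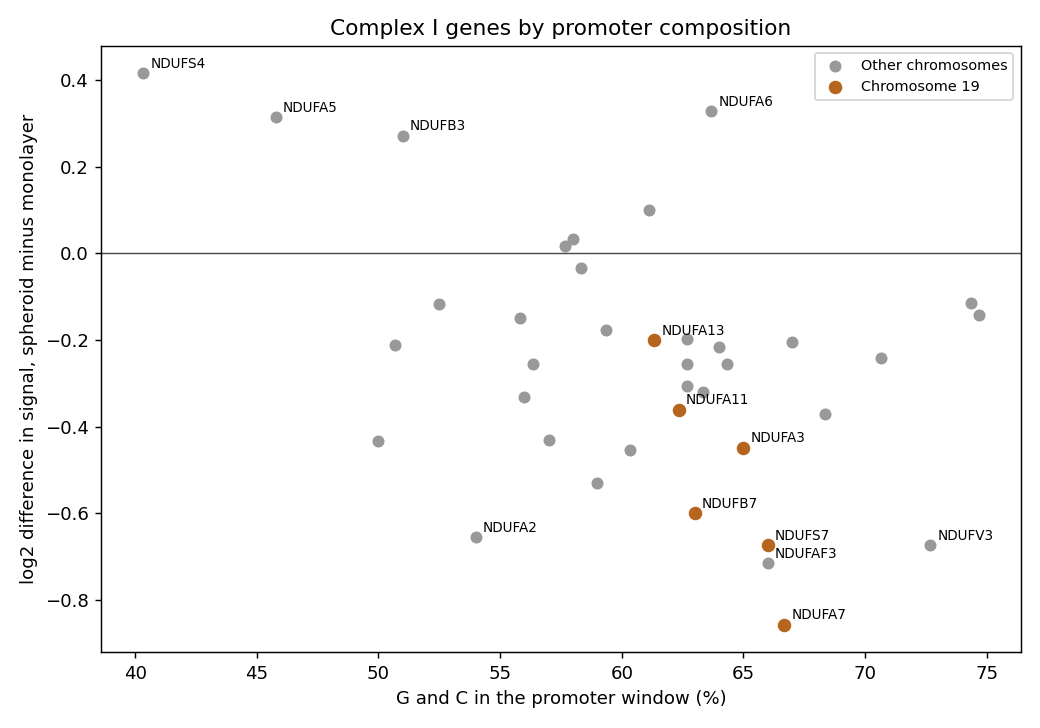
Log2 difference in signal, spheroid minus monolayer, against the share of G and C in the promoter window (%) for 38 complex I genes, 1 dot a gene, on the deposited scale with 1 array per condition. The 6 genes on chromosome 19 (brown) lie under 0, or 5 of them with spike-in scaling, and NDUFS4, with the lowest share at 40.3%, lies highest. With spike-in scaling all dots would be higher by 0.25.

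Outside the NDUF names, complex I needs further factors and the subunits made from mitochondrial DNA. Of 13 assembly factors with other names 10 were lower, or 5 with spike-in scaling, with a median log2 difference of -0.15 on the deposited scale, 0 past 2-fold and 1 past 1.5-fold in each direction. DMAC1, a factor of the distal membrane arm, went from 2012 to 1208 and was 1.67-fold lower. LYRM2, a small LYR protein linked to the N module, went from 773.3 to 1471 and was 1.90-fold higher. Of the 7 mitochondrially encoded subunits, 3 had a probe set of their own. The signal of ND2 was 12486 in monolayer and 15849 in spheroids, that of ND4 32908 and 34158, and that of ND6 2823 and 2817, so that their log2 differences were 0.34, 0.05 and -0.0031.

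The other complexes of the chain had medians near that of the complex I subunits. The median log2 difference was -0.34 over 7 genes of complex II, -0.24 over 13 of complex III, -0.23 over 31 of complex IV and -0.25 over 19 of complex V. Over the 70 genes of complexes II to V, a list of both subunits and assembly factors, it was -0.26. Of them 52 were lower, or 74.3%, against 80.5% of the 41 NDUF subunits and assembly factors together and 84.8% of the NDUF subunits alone. With spike-in scaling 37 of the 70 were lower, with a median of -0.02, where 32.8% of all measured genes were lower. At 1.5-fold, 8 of the 70 genes were lower and 4 were higher, namely UQCC2, LYRM7, COX19 and COX20, against 6 and 0 of the 41. UQCC2, at 66.6 and 108.1, and COX19, at 96.9 and 145.5, were close to the floor. LYRM7, at 1461 and 2329, and COX20, at 2219 and 3855, were not. COX4I2, among the 8 lower, exceeded the floor in monolayer only. The lowest mean signal among the 41 was 668.0, so the lists differ in brightness. SDHC, a membrane anchor of complex II, was the only one of the 70 past 2-fold, going from 4553 to 2234. The 75 mitochondrial ribosomal protein genes had a median of -0.21, with 57 lower, or 32 with spike-in scaling. The differences between these lists were not tested.

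**Figure D4:**
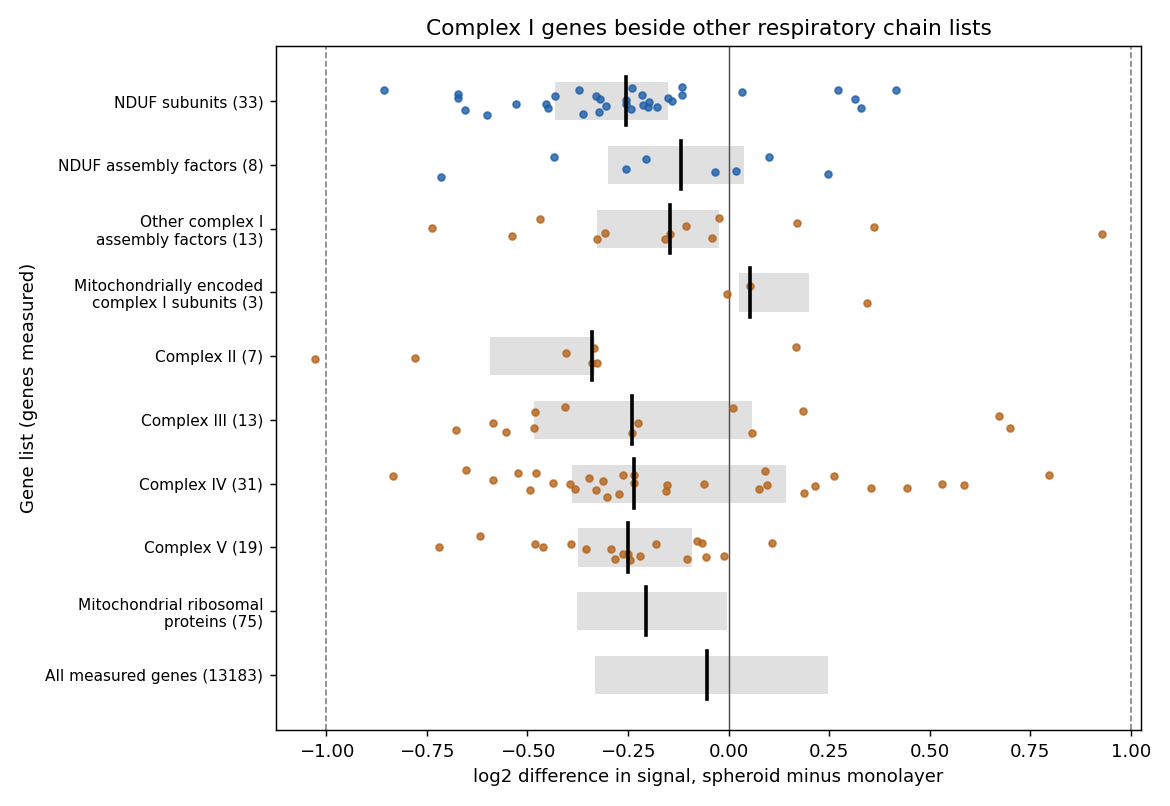
Log2 difference in signal, spheroid minus monolayer, of measured genes by list (dots, 1 gene each, left out for the mitochondrial ribosomal proteins and all genes, with genes under the floor on 1 array set to it), with the median (black line) the interquartile range (grey bar) and 2-fold differences (dashed lines), on the deposited scale with 1 array per condition. Medians of the NDUF subunits and of complexes II to V, whose lists hold subunits and assembly factors, lie between -0.34 and -0.23 and that of all measured genes at -0.05. With spike-in scaling all lists shift to the right together, the median of all genes to 0.18.

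Among 16 electron carriers and nuclear regulators of respiratory genes, 15 were measured, with a median log2 difference of -0.04, 8 lower and 7 higher, or 4 lower with spike-in scaling. TFAM, which packages and transcribes mitochondrial DNA, went from 2069 to 3271 and was 1.58-fold higher, and POLRMT, the mitochondrial RNA polymerase, went from 1330 to 791.1 and was 1.68-fold lower. PPARGC1A was under the floor on both arrays. The genes once named NDUFA4 and NDUFA4L2 now have the symbols COXFA4 and COXFA4L2, do not start with NDUF, and belong to complex IV. COXFA4 had signals of 10577 and 8865, and COXFA4L2, which hypoxia is known to induce, was under the floor on both arrays.

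**Figure D5:**
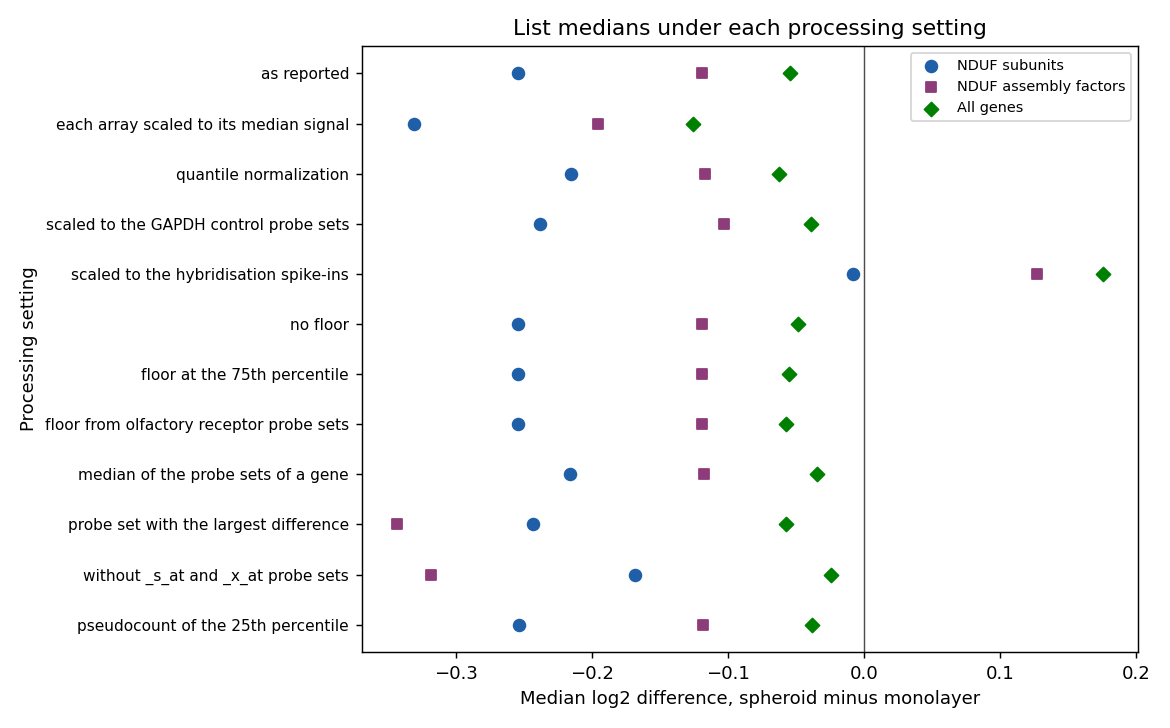
Median log2 difference, spheroid minus monolayer, of the NDUF subunits (circles), the NDUF assembly factors (squares) and all genes (diamonds) as reported and under 11 other processing settings, 1 array per condition. The circle lies to the left of the diamond in each row, at a distance that scaling by 1 factor per array can hardly change by construction, while scaling to the hybridisation spike-ins brings the circle to -0.0084 and the square to 0.13.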

How the data were processed

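The authors hybridised each RNA to an Affymetrix U133 Plus 2.0 array and made MAS5 signals with Affymetrix Expression Console, whose version is not given in the sources used here. The deposited values are those intensities, on a linear scale, for 54675 probe sets and without detection calls. Although the methods name duplicates, the analysis rests on 1 array for each condition, which limits its precision. From the deposited intensities, log2 differences were computed in Python 3.11.15 with numpy 2.4.6, pandas 2.3.3 and scipy 1.17.1 with figures drawn in matplotlib 3.10.9. Names of probe sets come from the annotation of the platform, updated to RefSeq symbols (GRCh38.p14). Of them 41097 have 1 gene, of which 41043 were matched by gene number, 1801 have several and were not used for naming, and 11777 are unnamed here.

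The floor was the 50th percentile over both arrays, lower signals were raised to it, log2 was taken, and each gene was represented by its brightest probe set (mean of the log2 signals). Where a gene fell under the floor on 1 array, its difference is a bound. Thresholds were 2-fold, as in the methods, and 1.5-fold. Some genes of complex I are not reported here. The genes described and the lists of roles, other complexes and markers were chosen with earlier results of these data known. Genes named in detail were those past 1.5-fold, above the floor on 1 array only, at either end of a role group, core subunits, or with probe sets that disagree, and of other lists at most the largest differences. Other NDUF genes given with values were picked for the text with their values known. SDHC, TFAM, POLRMT, PPARGC1A and the COXFA4 genes were added after their values were seen. Simulated data were used to test the computation. Alternatives were other scalings, floors, probe set choices, a pseudocount of 15.9 and other thresholds.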

Additional observations from a re-analysis of the deposited data

How the results depend on the processing

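No paired analysis was possible because each condition has 1 array. Scaling to the 18 hybridisation spike-in probe sets, all lower on the spheroid array (mean log2 difference -0.25), brought the subunit median from -0.25 to -0.0084 and reversed that of the assembly factors from -0.12 to 0.13. The assembly factor median was -0.34 with the most different probe set of each gene and -0.32, over 4 genes, without _s_at and _x_at probe sets. That choice of probe set left 2 genes, NDUFB1 and NDUFB8, at least 2-fold higher and 1, NDUFAF7, at least 2-fold lower, against 0 and 0. Without _s_at and _x_at probe sets 1, NDUFB1, was 2-fold higher. A threshold of 1.5-fold gave 6 lower. Under the other settings the subunit median stayed between -0.33 and -0.17. Relative to the median of all genes, a comparison chosen after the data were seen, it lay between -0.22 and -0.14 under all 11 settings, of which those that scale by 1 factor per array can hardly move it by construction. Of 440 single gene values under these settings 421 moved by less than 0.41, the SD between probe sets of a gene. Many of them could not move that far. Scaling by 1 factor per array shifts every gene by at most 0.25, and all 41 genes lie above each floor. The 19 values that moved further all came from settings that change the probe set, so the 421 are no measure of stability. The cause of these shifts was not tested beyond the construction of each setting.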
